A study of Mus musculus with 12 samples.

Results

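Myeloid C-type lectin receptors are surface proteins with which macrophages, dendritic cells and neutrophils bind sugars and lipids of microbes and of damaged cells. The 8 genes examined here, Clec4d, Clec4e, Clec4n, Clec5a, Clec7a, Clec10a, Clec12a and Mgl2, were chosen by name and read from tables of 16920 genes each. All 8 passed the filter on low counts, as did 12064 genes in all. mRNA had been sequenced from mouse peritoneal macrophages in 4 groups of 3 libraries, namely wild-type cells with PBS (WT PBS), wild-type cells with lipopolysaccharide (WT LPS), cells labelled as Ythdf1 knockout with PBS (KO PBS) and such cells with LPS (KO LPS). LPS, a component of the outer membrane of Gram-negative bacteria, was given at 1 µg/mL, and every culture was harvested after 6 h. The cells of all groups had been drawn into the peritoneum by an irritant (the series record names starch broth, the study's methods thioglycollate) and cultured overnight. The knockout was made by CRISPR/Cas9 in the whole mouse, not in macrophages alone, and the study's methods give the age only as a range of weeks for all its experiments. Each library is labelled as an independent sample, but whether each came from its own mouse is not given.

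C-type lectin receptors differ in how they signal. Dectin-1 (Clec7a) carries its own Syk-binding motif, whereas Mincle (Clec4e), MCL (Clec4d, also called Dectin-3) and Dectin-2 (Clec4n) pass their signal through the adaptor FcRγ (Fcer1g), and MDL-1 (Clec5a) through DAP12 (Tyrobp). All of them lead to the kinase Syk and, for several, to the CARD9 complex that switches on NF-κB. MICL (Clec12a) instead carries an inhibitory motif that recruits phosphatases such as SHP-1 (Ptpn6). MGL1 (Clec10a) and MGL2 (Mgl2) bind galactose-type sugars, serve in uptake, and are known as marks of macrophages exposed to interleukin-4.

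Total counts lay between 21546274 and 22017005 per library, so that 3 counts, used as the floor, equalled 0.105 to 0.187 CPM (the read count of a gene relative to the library size after TMM scaling). WT LPS replicate 1 stood apart from its group, with a mean chi-square per gene of 32.7 and 25.5 against replicates 2 and 3, whereas the other pairs within groups gave 2.77 to 16.7. Values without it are therefore given below. Mean Ythdf1 with PBS was 43.5 CPM in WT and 57.2 CPM in KO libraries, and with LPS 201 and 198 CPM, so the libraries labelled KO showed no loss of its mRNA. Under PBS it was instead higher in KO, without overlap of libraries (log2 fold change 0.40, edgeR adjusted p = 0.000133). Under LPS it did not differ (-0.028, edgeR adjusted p = 0.724). Its rise with LPS was smaller in KO than in WT (1.79 against 2.21, interaction -0.42, edgeR adjusted p = 0.00177). The allele itself was not tested, since only counts per gene were read, and the genotype comparisons rest on the labels. The 10 macrophage markers, led by Lyz2 and Cd68, summed to between 17413 and 19984 CPM in every library.

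To learn how LPS altered the receptors, LPS and PBS libraries were compared within each genotype with edgeR's quasi-likelihood test, and a gene was called at an adjusted p below 0.05. In WT macrophages 5 of the 8 genes rose (Clec4d, Clec4e, Clec5a, Clec12a and Mgl2) and 3 fell (Clec4n, Clec7a and Clec10a). In KO macrophages these 5 genes rose as well and these 3 fell. LPS moved most of the transcriptome, with 36.5% of all genes called higher and 40.2% lower in WT, and 38.8% higher and 41.1% lower in KO, so the count of receptors called is a description. The median log2 fold change of the 8 genes was 0.66 in WT and 0.97 in KO, beside -0.048 and -0.041 over all genes tested.

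**Figure D1:**
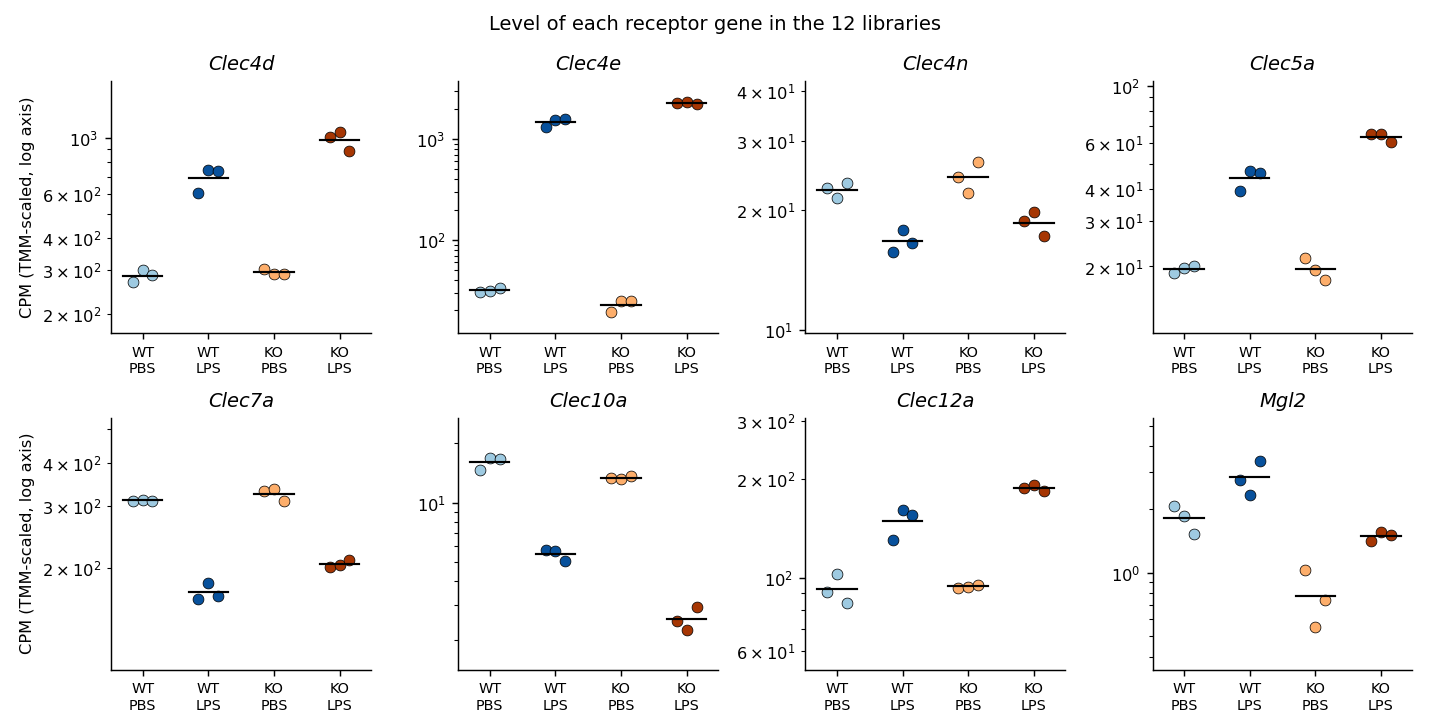
CPM (TMM-scaled, log axis, a separate axis for each gene) of the 8 receptor genes in each of the 12 libraries, with points for the 3 replicates in order and a bar for the group mean. Clec4e rises from between 19.1 and 33.7 CPM with PBS to between 1309 and 2354 CPM with LPS, while Clec7a, Clec4n and Clec10a are lower with LPS in both genotypes.

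Clec4e, which encodes Mincle, a receptor for mycobacterial cord factor, changed the most. Its level was 30.5, 30.9 and 33.7 CPM in the WT PBS libraries and 1309, 1554 and 1569 CPM in the WT LPS libraries. In KO cells it was 19.1, 24.6 and 24.8 CPM with PBS and 2297, 2354 and 2216 CPM with LPS. No PBS library came near any LPS library. The group means were 31.7 ± 1.74 and 1477 ± 146 CPM in WT (SD, n = 3) and 22.9 ± 3.24 and 2289 ± 69.3 CPM in KO. This was a 46.6-fold rise in WT, with a log2 fold change of 5.54 ± 0.106 (SE, edgeR adjusted p = 2.75e-17), and a 100.2-fold rise in KO, with 6.65 ± 0.112 (edgeR adjusted p = 4.97e-18). Without WT LPS replicate 1 the WT value was 5.62.

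Clec4d, the neighbour of Clec4e, encodes MCL, which pairs with Mincle on the cell surface. It was already high at rest, at 269, 298 and 286 CPM in WT PBS and 302, 289 and 289 CPM in KO PBS libraries. With LPS it reached 606, 743 and 737 CPM in WT and 1009.8, 1049.9 and 889.9 CPM in KO. Every LPS library of Clec4d lay above every PBS library in both genotypes, and WT LPS replicate 1 was the lowest of the LPS libraries. The rise was 2.44-fold in WT (log2 fold change 1.29 ± 0.0803, edgeR adjusted p = 1.82e-10) and 3.35-fold in KO (1.74 ± 0.0812, edgeR adjusted p = 2.78e-12).

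Clec4n, Clec4d and Clec4e lie side by side on chromosome 6 (RefSeq, build GRCm38.p6). Clec4n (gene 56620) spans chr6:123229843-123247024 on the plus strand, Clec4d (gene 17474) chr6:123262107-123275268 on the plus strand, and Clec4e (gene 56619) chr6:123281789-123289871 on the minus strand. Only 6.52 kb separate Clec4d from Clec4e and 15.1 kb separate Clec4n from Clec4d, yet Clec4n fell while its neighbours rose. Clec7a (gene 56644, chr6:129461591-129472785, minus strand) and Clec12a (gene 232413, chr6:129349783-129365303, plus strand) lie in a second cluster of lectin genes, 96.3 kb apart, and Clec5a (gene 23845, chr6:40574898-40585805, minus strand) lies alone. Mgl2 (gene 216864, chr11:70130125-70137542) and Clec10a (gene 17312, chr11:70166623-70170836) are neighbours on the plus strand of chromosome 11, 29.1 kb apart.

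The 250 bases before the annotated start sites of Clec4d and Clec4e are shown because these neighbours rose together, and those of Clec7a because that gene fell. They are those of RefSeq, build GRCm38.p6, at chr6:123261857-123262106 (plus strand), chr6:123289872-123290121 (minus strand) and chr6:129472780-129473029 (minus strand), read 5′ to 3′ along the strand of the gene. Capitals mark matches on either strand to the C/EBP motif TTNCNNAA or the PU.1 motif GAGGAAG.
Clec4d: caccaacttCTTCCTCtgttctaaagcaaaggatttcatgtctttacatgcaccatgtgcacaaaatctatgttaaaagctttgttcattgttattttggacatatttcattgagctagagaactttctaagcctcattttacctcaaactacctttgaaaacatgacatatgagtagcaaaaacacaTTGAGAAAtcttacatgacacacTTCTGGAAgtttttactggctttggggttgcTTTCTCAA
Clec4e: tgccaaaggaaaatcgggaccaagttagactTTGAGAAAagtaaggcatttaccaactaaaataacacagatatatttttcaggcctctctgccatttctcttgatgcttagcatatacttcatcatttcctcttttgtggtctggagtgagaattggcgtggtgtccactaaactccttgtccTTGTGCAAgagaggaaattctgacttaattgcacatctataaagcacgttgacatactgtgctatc
Clec7a: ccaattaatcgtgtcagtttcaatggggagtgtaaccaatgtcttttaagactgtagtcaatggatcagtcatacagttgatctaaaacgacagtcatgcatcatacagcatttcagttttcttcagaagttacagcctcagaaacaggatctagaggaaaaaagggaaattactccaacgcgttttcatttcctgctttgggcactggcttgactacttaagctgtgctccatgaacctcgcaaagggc
C/EBP factors and PU.1 are transcription factors of the myeloid lineage. Clec4d held 3 C/EBP matches, at -62 to -55, -39 to -32 and -8 to -1 from the start site, and a PU.1 match at -241 to -235. Clec4e held 2 C/EBP matches, at -219 to -212 and -66 to -59. The Clec7a window shown held none of the letters searched. It precedes a start site just inside the gene span given above, and the window of the other annotated start site (chr6:129472786-129473035) held none either. Promoter windows were matched for 6 of the 8 receptor genes (Clec4d, Clec4e, Clec5a, Clec7a, Clec12a and Mgl2). Those of Clec12a (chr6:129349994-129350243) and Mgl2 (chr11:70130107-70130356) precede start sites inside the gene span, and lie wholly (Clec12a) or mostly (Mgl2) within it. A C/EBP match stood in 5 of the 6, against 36.8% of 32851 promoter windows of this length. A PU.1 match stood in 3 (Clec4d, Clec5a and Clec12a), against 10.6%. The AP-1 motif TGANTCA stood in 1 (Clec12a), against 6.7%. Neither the interferon-response motif GAAANNGAA nor the NF-κB motif stood in any of the 6, against 7.1% and 7.3% of all windows. These are matches of letters and were not tested as binding sites, and the motifs were not filtered for overlap with each other.

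Clec5a, whose product MDL-1 pairs with DAP12, followed the course of Clec4d at a lower level. It was 18.8, 19.8 and 20.1 CPM in WT PBS, 39.1, 46.6 and 46.1 CPM in WT LPS libraries, and 21.5, 19.3 and 17.7 CPM in KO PBS and 65.1, 64.9 and 60.4 CPM in KO LPS libraries. LPS libraries lay above PBS libraries throughout, and all KO LPS libraries above all WT LPS libraries. The rise was 2.25-fold in WT (log2 fold change 1.17 ± 0.0823, edgeR adjusted p = 9.75e-10) and 3.26-fold in KO (1.70 ± 0.0816, edgeR adjusted p = 4.12e-12).

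Clec12a, the inhibitory receptor that binds uric acid crystals, rose less. Its level was 90.7, 103 and 84.3 CPM in WT PBS, 130.4, 161 and 156 CPM in WT LPS libraries, and 93.6, 94.3 and 95.2 CPM in KO PBS and 188, 192 and 184 CPM in KO LPS libraries. The groups with LPS did not overlap those with PBS. The log2 fold change was 0.68 ± 0.0804 in WT (edgeR adjusted p = 7.18e-07) and 0.99 ± 0.0804 in KO (edgeR adjusted p = 5.31e-09).

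Clec7a, the β-glucan receptor Dectin-1, fell with LPS. It was 311, 314 and 311 CPM in WT PBS and 163, 181 and 166 CPM in WT LPS libraries, and 332, 337 and 311 CPM in KO PBS and 201, 203 and 211 CPM in KO LPS libraries. Every LPS library was below every PBS library. The fall was 1.83-fold in WT (log2 fold change -0.87 ± 0.0559, edgeR adjusted p = 2.64e-10) and 1.59-fold in KO (-0.67 ± 0.0557, edgeR adjusted p = 7.06e-09).

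Clec4n, which encodes the mannan receptor Dectin-2, fell by less. It was 22.8, 21.5 and 23.4 CPM in WT PBS, 15.7, 17.8 and 16.6 CPM in WT LPS libraries, and 24.3, 22.1 and 26.5 CPM in KO PBS and 18.8, 19.8 and 17.2 CPM in KO LPS libraries. The LPS libraries lay below the PBS libraries in both genotypes. Its log2 fold change was -0.43 ± 0.0838 in WT (edgeR adjusted p = 0.000182) and -0.38 ± 0.083 in KO (edgeR adjusted p = 0.00047).

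The galactose-type lectins moved in opposite directions. Clec10a was 14.6, 16.9 and 16.6 CPM in WT PBS and 5.75, 5.66 and 5.07 CPM in WT LPS libraries, and 13.4, 13.2 and 13.6 CPM in KO PBS and 2.49, 2.26 and 2.94 CPM in KO LPS libraries. It fell 2.93-fold in WT (log2 fold change -1.55 ± 0.095, edgeR adjusted p = 1.44e-10) and 5.21-fold in KO (-2.38 ± 0.113, edgeR adjusted p = 3.76e-12), with no overlap of libraries. Mgl2 had few reads, at 2.07, 1.87 and 1.53 CPM in WT PBS and 2.76, 2.35 and 3.41 CPM in WT LPS libraries, and 1.03, 0.554 and 0.745 CPM in KO PBS and 1.42, 1.56 and 1.52 CPM in KO LPS libraries. These levels stood on 15.77 to 60.38 counts per library. Its log2 fold change was 0.64 ± 0.197 in WT (edgeR adjusted p = 0.00763) and 0.95 ± 0.258 in KO (edgeR adjusted p = 0.00301), but the WT direction turned to -0.024 when libraries were scaled by their totals alone. Its WT call was also lost under upper-quartile scaling (0.33) and without WT LPS replicate 3 (0.49), and its KO call under totals alone (0.15). Mgl2 and Clec10a are near copies, and 13.11% of the 50-base windows of Mgl2 and 9.02% of those of Clec10a also occur in other genes, 270 of them in each other. Counts of Mgl2 carried decimals in 12 of 12 libraries and those of Clec10a in 11, whereas those of the other 6 genes were whole, so the split of reads between Mgl2 and Clec10a is uncertain.

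**Figure D2:**
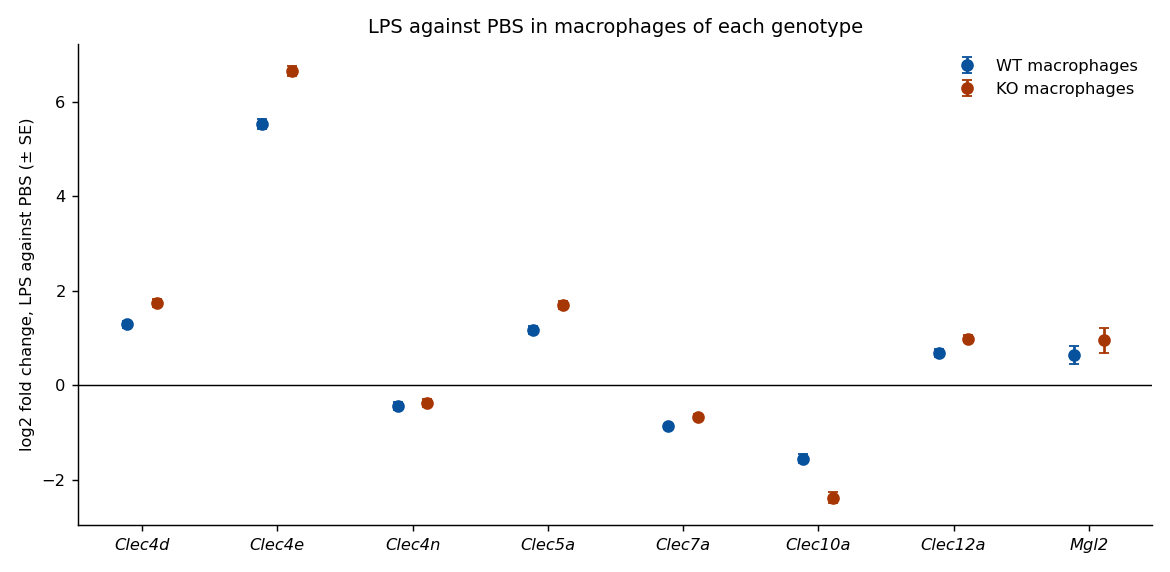
Log2 fold change of LPS against PBS (vertical axis, ± SE from edgeR) of each receptor gene in WT (blue) and KO (brown) macrophages, with TMM scaling. Clec4e lies at 5.54 and 6.65, far above the others, Clec10a is lowest at -1.55 and -2.38, and Mgl2 in WT turns to -0.024 with library totals alone.

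The direction of an LPS change depends on how libraries are scaled, since the TMM factors were 1.258 to 1.314 in PBS and 0.7441 to 0.808 in LPS libraries. Against TMM, the median log2 fold change of all genes shifted by -0.66 in WT and -0.80 in KO with library totals alone, by -0.31 and -0.36 with upper-quartile scaling, and by 0.046 and 0.027 with RLE. With totals alone the WT values became 4.88 for Clec4e, 0.63 for Clec4d, 0.51 for Clec5a, 0.023 for Clec12a (edgeR adjusted p = 0.806), -1.54 for Clec7a, -1.09 for Clec4n and -2.21 for Clec10a. In KO they became 5.85, 0.94, 0.90, 0.19, -1.47, -1.18 and -3.18, and Clec12a was still called (edgeR adjusted p = 0.0412). Relative to the median of all genes, the WT changes were under each of the 4 scalings 5.59 for Clec4e, 1.34 for Clec4d, 1.22 for Clec5a, 0.73 for Clec12a, 0.69 for Mgl2, -0.38 for Clec4n, between -0.83 and -0.82 for Clec7a, and -1.50 for Clec10a.

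**Figure D3:**
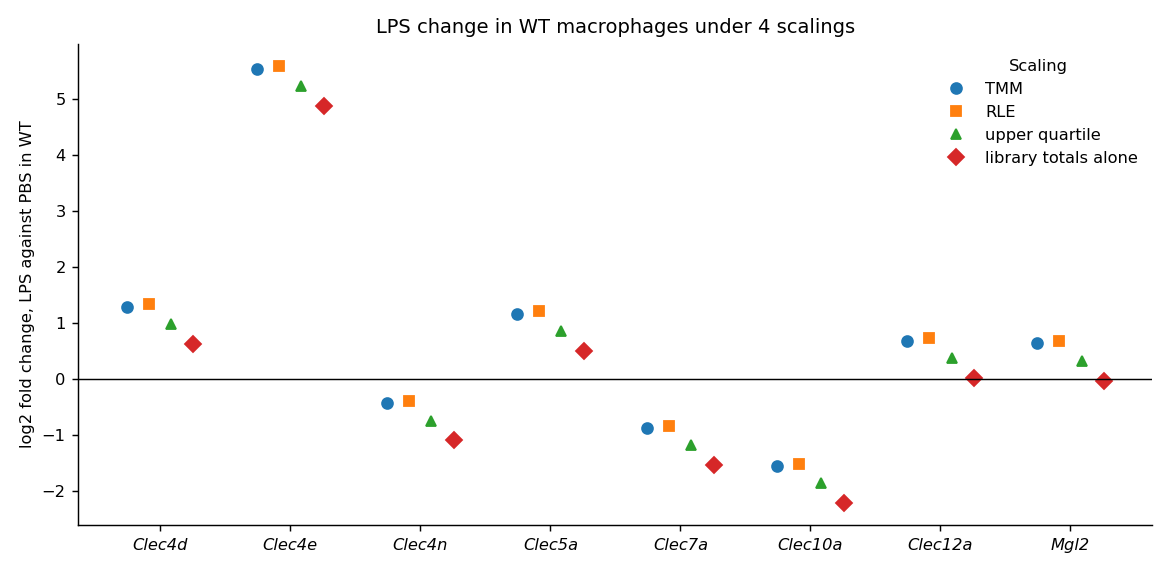
Log2 fold change of LPS against PBS in WT macrophages (vertical axis) of each receptor gene under TMM, RLE, upper-quartile and library-total scaling. All 8 genes shift down together by -0.66 from TMM to totals alone, which brings Clec12a to 0.023 and turns Mgl2 to -0.024.

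The ratio of 2 receptors within a library is free of this scaling. Clec4e reads numbered 0.113, 0.103 and 0.118 per Clec4d read in WT PBS libraries and 2.16, 2.09 and 2.13 in WT LPS libraries. In KO the ratio was 0.0633, 0.0854 and 0.0857 with PBS and 2.27, 2.24 and 2.49 with LPS. Thus Mincle transcripts gained on those of its partner in every LPS library. Clec7a reads per Clec4d read went from 1.1 ± 0.0525 to 0.246 ± 0.0223 in WT (SD, n = 3) and from 1.11 ± 0.0473 to 0.21 ± 0.0237 in KO. Clec10a reads per Mgl2 read went from 9 ± 1.91 to 1.99 ± 0.468 in WT and from 18.4 ± 5.45 to 1.71 ± 0.245 in KO. That ratio rests on the uncertain split of reads between these 2 genes and on few Mgl2 counts.

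Of all counts assigned to the 8 genes, Clec4e held 4.06% ± 0.256 (SD, n = 3) in WT PBS and 57.7% ± 0.414 in WT LPS libraries, and 2.88% ± 0.444 and 61% ± 0.713 in the KO libraries. Clec7a held 40.0% and 41.1% with PBS in WT and KO, the largest share there (counts are not corrected for gene length here), but 6.67% and 5.47% with LPS. Clec4d held 36.4% and 36.9% with PBS, and 27.1% and 26.2% with LPS. The 8 genes together took 0.0991% ± 0.00349 of all counts in WT PBS, 0.104% ± 0.0022 in KO PBS, 0.205% ± 0.0231 in WT LPS and 0.282% ± 0.0141 in KO LPS libraries. In bulk RNA, fewer cells that express a gene and less of its RNA per cell cannot be told apart.

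**Figure D4:**
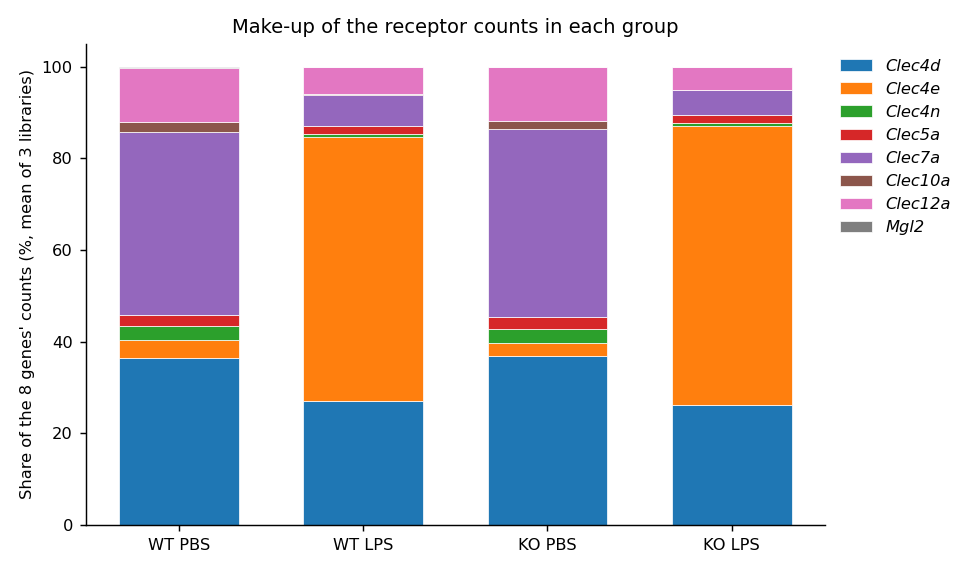
Share of the counts of the 8 receptor genes held by each gene (vertical axis, percent, mean of 3 libraries) in the 4 groups. With PBS, Clec7a (40.0% in WT) and Clec4d (36.4%) hold most, and with LPS Clec4e holds 57.7% in WT and 61% in KO.

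Levels can be compared between genes only per length, and CPM per kb of annotated exon was used for this. In WT PBS the order was Clec4d (178 ± 9.23, SD, n = 3), Clec7a (118 ± 0.645), Clec12a (16.8 ± 1.75), Clec4n (15.9 ± 0.692), Clec4e (6.38 ± 0.35), Clec10a (5.54 ± 0.428), Clec5a (5.09 ± 0.184) and Mgl2 (0.871 ± 0.132 CPM per kb). The libraries of Clec12a and Clec4n overlapped, as did those of Clec10a and Clec5a. In WT LPS the order was Clec4d (435), Clec4e (298), Clec7a (64.5), Clec12a (27), Clec4n (11.8), Clec5a (11.4), Clec10a (1.9) and Mgl2 (1.36 CPM per kb), with overlap of Clec4n and Clec5a only. In KO PBS, Clec4n and Clec12a both had 17.1 CPM per kb of exon, and Clec5a (5.08), Clec10a (4.62) and Clec4e (4.6) overlapped in that order. In KO LPS, Clec4d (615) and Clec4e (461) led again and no neighbours in the order overlapped. Clec4d was thus the most abundant per length in all 4 groups, and Clec4e went from the fifth place to the second in WT. With the longest transcript as the length, Clec10a (6.89) stood above Clec4e (6.59 CPM per kb) in WT PBS, their libraries overlapping. With that length Clec12a also stood above Clec4n without overlap under PBS, at 28.7 against 16.1 CPM per kb in WT and 29.2 against 17.3 in KO, and in KO PBS Clec10a (5.75) stood above Clec5a (5.21 CPM per kb), with overlap.

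To learn whether the receptors differed by genotype label, KO and WT libraries were compared under each treatment. Under PBS, none of the 8 was called higher in KO, where 12.3% of all genes were, and 3 were lower (Clec4e, Clec10a and Mgl2), where 13.0% of all genes were. Mgl2 was 1.82 ± 0.276 CPM in WT and 0.777 ± 0.241 CPM in KO (SD, n = 3), every KO library being below every WT library (log2 fold change -1.23 ± 0.226, edgeR adjusted p = 0.000927). Clec4e was lower in KO by a log2 fold change of -0.47 ± 0.0957 (edgeR adjusted p = 0.00195), again without overlap. Clec10a was 16.1 ± 1.24 CPM in WT and 13.4 ± 0.218 CPM in KO (-0.26 ± 0.0785, edgeR adjusted p = 0.0229). Its call was lost under 7 of 21 alternatives, namely library totals alone, DESeq2 and without 1 of WT PBS replicates 2 and 3 or of the 3 KO PBS replicates, with values of -0.25 to -0.21. The other 5 genes did not pass, with log2 fold changes of 0.044 ± 0.0793 for Clec4d, 0.11 for Clec4n, -0.0039 ± 0.0837 for Clec5a, 0.068 for Clec7a and 0.024 for Clec12a, and their libraries overlapped.

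Under LPS, 5 of the 8 were higher in KO (Clec4d, Clec4e, Clec5a, Clec7a and Clec12a), where 22.1% of all genes were, and 2 were lower (Clec10a and Mgl2), where 19.3% were. Clec4n did not pass (0.16, edgeR adjusted p = 0.179) and its libraries overlapped. Clec4e was 1.55-fold higher in KO (log2 fold change 0.63 ± 0.086, edgeR adjusted p = 2.88e-05), Clec5a 1.45-fold (0.53 ± 0.0791, edgeR adjusted p = 6.68e-05) and Clec4d 1.41-fold (0.50 ± 0.0791, edgeR adjusted p = 0.000114). Clec12a was higher by 0.33 ± 0.0799 (edgeR adjusted p = 0.00321) and Clec7a by 0.27 ± 0.0561 (edgeR adjusted p = 0.00117). For each of these 5 genes all 3 KO LPS libraries lay above all 3 WT LPS libraries. This is a description only, given without the share of all genes that separate in the same way. Without WT LPS replicate 1 the values were 0.55 for Clec4e, 0.45 for Clec5a, 0.41 for Clec4d, 0.25 for Clec12a and 0.24 for Clec7a, and all were still called. Clec10a was 5.49 ± 0.372 CPM in WT and 2.57 ± 0.346 CPM in KO (SD, n = 3), a log2 fold change of -1.09 ± 0.135 (edgeR adjusted p = 1.12e-05). For Mgl2 the means were 2.84 ± 0.533 in WT LPS against 1.5 ± 0.0723 CPM in KO LPS libraries (-0.92 ± 0.224, edgeR adjusted p = 0.00365). The median of the 8 genes was 0.30 under LPS and 0.01 under PBS, beside 0.00059 and 0.00036 over all genes.

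Transcript GC content moved with the genotype differences. The 6 receptor genes on chromosome 6 are poor in GC, at 38.9% to 45.4%, where the median of the genes tested was 49.6%, whereas Clec10a and Mgl2 stand at 49.9% and 50.3%. Over the 2977 genes tested within 38.9% to 45.4%, the median log2 fold change of KO against WT was 0.19 under LPS and 0.094 under PBS, and 39.9% of them were called higher and 8.67% lower under LPS. With a correction of each library for its trend on GC content, the LPS differences became 0.37 for Clec4e (edgeR adjusted p = 0.00178), 0.20 for Clec4d (edgeR adjusted p = 0.0115) and 0.19 for Clec5a (edgeR adjusted p = 0.0144). Clec7a, at -0.022 (edgeR adjusted p = 0.77), and Clec12a, at 0.062 (edgeR adjusted p = 0.486), were no longer called. Clec10a (-1.08) and Mgl2 (-0.89) hardly moved. Under PBS the corrected values were -0.62 for Clec4e and -0.22 for Clec5a, which was then called (edgeR adjusted p = 0.0172).

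**Figure D5:**
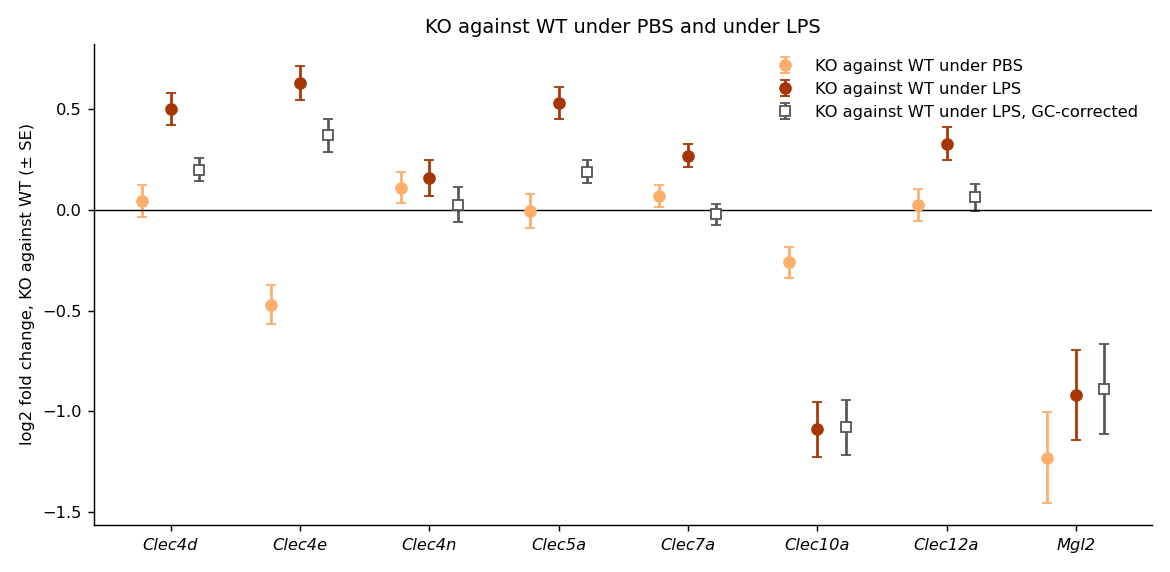
Log2 fold change of KO against WT (vertical axis, ± SE from edgeR) of each receptor gene under PBS, under LPS, and under LPS after a correction for transcript GC content. Clec4e lies at -0.47 under PBS and 0.63 under LPS, Clec7a drops from 0.27 to -0.022 with the correction, and Clec10a and Mgl2 lie below 0 in all 3.

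Whether LPS acted differently in the 2 genotypes was tested as the interaction, which is the log2 fold change with LPS in KO minus that in WT. Of the 8 genes, 3 were called higher (Clec4e, Clec5a and Clec4d), where 9.78% of all genes were, and 1 lower (Clec10a), where 8.26% were. Among genes within the GC range of the receptors on chromosome 6 (38.9% to 45.4%), 13.9% were called higher and 4.8% lower, with a median of 0.10. The value was 1.10 ± 0.129 for Clec4e (edgeR adjusted p = 2.75e-05), 0.54 ± 0.115 for Clec5a (edgeR adjusted p = 0.00436) and 0.45 ± 0.112 for Clec4d (edgeR adjusted p = 0.0104). It was -0.83 ± 0.157 for Clec10a (edgeR adjusted p = 0.00171). Over the 20 alternatives it kept its call for Clec4e (0.96 to 1.15), Clec5a (0.40 to 0.58) and Clec10a (-0.97 to -0.75), while that of Clec4d was lost with library totals alone (0.32, edgeR adjusted p = 0.0737). Without WT LPS replicate 1 it was 1.02 for Clec4e, 0.46 for Clec5a and 0.37 for Clec4d. Clec12a (0.31, edgeR adjusted p = 0.0703), Clec7a (0.20, edgeR adjusted p = 0.0908), Mgl2 (0.31, edgeR adjusted p = 0.57) and Clec4n (0.049, edgeR adjusted p = 0.835) did not pass. Clec12a passed without WT LPS replicate 2 and without WT PBS replicate 3 (0.37 in both), and Clec7a without WT LPS replicate 2 (0.25). The median of the 8 genes was 0.31, beside 0.0095 over all genes.

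Markers of other cell types that bear C-type lectins were read beside these results. Neutrophils also express Clec4d, Clec4e and Clec5a. The neutrophil list, of which 12 of 14 genes are in the tables, summed to 207 to 210.5 CPM in WT PBS, 318 to 323 CPM in KO PBS, 902 to 944 CPM in WT LPS, and, highest of all, 1299.6 to 1395 CPM in KO LPS libraries. Of its 6 genes tested, 5 were called higher and 1 lower with LPS in both genotypes and in KO against WT under LPS, where among all genes 36.5% and 40.2% (LPS in WT), 38.8% and 41.1% (LPS in KO) and 22.1% and 19.3% (genotype under LPS) were. Csf3r (98.2, 163, 505 and 655 CPM in the same order) and Lcn2, an acute-phase protein that macrophages make as well, led the sum with LPS. Mmp8, a neutrophil collagenase, was present in every group, at 78.2 CPM in WT LPS to 147 CPM in KO PBS on average, S100a8 had 112 to 247 counts per library and the chemokine receptor Cxcr2 36.55 to 95.11. S100a9, a main protein of the neutrophil cytosol, had at most 2 counts in any library, and Elane and Mpo, granule enzymes, likewise, while Ly6g and Ngp are at 0 or not listed. Dendritic cells also express Clec10a and Mgl2. The 13 dendritic cell markers summed to 3.03 to 3.52 CPM in WT PBS, 2.24 to 2.9 CPM in KO PBS, 17.8 to 19.4 CPM with LPS in WT, and 17.1 to 20.3 CPM with LPS in KO libraries. With LPS the sum was led by Ccr7 (8.82 CPM in WT and 10.1 CPM in KO, against 0.204 and 0.047 CPM with PBS). Flt3 had at most 5.6 counts and Siglech at most 1, and Batf3 was lower with LPS (0.19 against 0.993 CPM in WT). Of the 8 tested, 5 were higher and 1 lower with LPS in WT, and 6 and 1 in KO, beside the shares of all genes given above. Of the 8 tested, 4 were lower and 1 higher in KO under PBS (13.0% and 12.3% of all genes), and 1 was lower under LPS (19.3% of all genes). The part of these markers in the receptor results was not tested. Of the other lists, B cell markers summed to at most 2.14 CPM and eosinophil markers to at most 5.71 CPM in any library. The T cell list (149 to 520.2 CPM) was led by Il7r, followed with PBS by Cd28 (37 CPM in WT and 52.1 CPM in KO) and with LPS by Lck (10.3 and 3.96 CPM), while Cd3e had 1 count at most, and the mast cell list (0.42 to 1.27 CPM with PBS and 144 to 290.5 CPM with LPS) was led by Hdc with LPS (145 CPM in WT and 285 CPM in KO) and by Kit with PBS (0.718 and 0.27 CPM), with Cma1 at 2 counts at most.

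Of 25 genes for the Syk and CARD9 pathway downstream of these receptors, 24 were tested. With LPS, 14 were higher and 8 lower in WT, and the counts were the same in KO, with medians of 0.52 and 0.49, beside -0.048 and -0.041 over all genes tested. Among all genes 36.5% were higher and 40.2% lower in WT, and 38.8% and 41.1% in KO. The adaptor of the Mincle group, Fcer1g, went from 707 ± 5.96 to 1714 ± 201 CPM in WT (SD, n = 3) and from 674 ± 7.07 to 1922 ± 168 CPM in KO (log2 fold changes 1.28 and 1.51, edgeR adjusted p = 1.61e-10 and 1.44e-11). Tyrobp, the adaptor of Clec5a, did not pass in WT (-0.16, edgeR adjusted p = 0.101) and fell in KO (-0.46, edgeR adjusted p = 0.000101), but 4 of 21 alternatives called it in WT (with values of -0.82 to -0.077 over all of them) and its interaction was not called (-0.31, edgeR adjusted p = 0.0935), though 3 of 20 alternatives called it (-0.44 to -0.22 over all of them). Syk rose by 1.05 in WT and 1.38 in KO. Card9 fell to 7.32 CPM in WT and to 5.76 CPM in KO (-1.45 and -2.19), while Malt1, the protease of the same complex, rose by 3.62 and 4.44. The kinase Src rose by 6.62 and 7.64, and the transcription factor Nfatc2 fell (-4.04 and -5.76). Egr2, a transcription factor induced through NFAT, fell in WT (-3.54) and in KO (-2.60), and the lipid phosphatase Inpp5d went from 174 to 24.2 CPM in WT and from 179 to 21.5 CPM in KO (-2.85 and -3.05). Ptpn6, the phosphatase recruited by Clec12a, rose from 191 to 469 CPM in WT and from 199.6 to 355 CPM in KO, where the log2 change of 0.83 dropped to 0.03 with library totals alone and was not called.

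Between genotypes, 4 genes of the pathway were higher and 4 lower in KO under PBS, and 6 were higher and 7 lower under LPS. Among all genes, 12.3% were higher and 13.0% lower under PBS, and 22.1% and 19.3% under LPS, so the counts of the 24 genes are a description. Under PBS, Hcst (0.51), which encodes the adaptor DAP10, and Card9 (0.39) were higher, and Nfatc2 (-0.32) and Cblb (-0.28), a ubiquitin ligase, were lower, calls that were lost under 2 and 1 of 21 alternatives. Under LPS, Malt1 was 426 ± 13.3 CPM in WT and 865 ± 71.9 CPM in KO (log2 fold change 1.02, edgeR adjusted p = 8.17e-09, 0.59 to 1.09 over the alternatives), and Egr2 was higher as well (0.97, 0.76 to 1.11). Pik3cd (-0.57), Ptpn6 (-0.40) and Card9 (-0.34, edgeR adjusted p = 0.0171) were lower, the call of Card9 being lost under 3 of 21 alternatives. Fcer1g (0.17), Syk (0.21) and Tyrobp (-0.15) did not pass under LPS, nor did they under PBS. Under LPS, 3, 2 and 3 of 21 alternatives called them, and under PBS 1 alternative each called Syk and Tyrobp. The interaction was called for 9 genes, 5 higher and 4 lower (9.78% and 8.26% of all genes), among them Src (1.02), Egr2 (0.94), Ptpn6 (-0.47), Card9 (-0.74) and Nfatc2 (-1.72).

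The other C-type lectin genes within 500 kb of the receptors were read next. Beside the Clec4n, Clec4d and Clec4e group lie Clec4a1, Clec4a3, Clec4a2 and Clec4b1, which were tested. Clec4a1 rose with LPS from 56.7 ± 2.21 to 186 ± 11.2 CPM in WT (1.71, edgeR adjusted p = 1.31e-13) and by 2.28 in KO. Clec4a3 (-0.33), Clec4a2 (-0.37), which encodes the inhibitory receptor DCIR, and Clec4b1 (-1.77, at most 1.04 CPM on average) fell in WT. Clec4a1 was, like Clec4e, lower in KO under PBS (-0.53, edgeR adjusted p = 1.73e-05) and had a called interaction (0.57, edgeR adjusted p = 0.000339), but under LPS its difference was 0.037 (edgeR adjusted p = 0.657). Beside Clec7a, the oxidised-LDL receptor Olr1 rose from 2.67 ± 0.22 to 37 ± 1.22 CPM in WT and from 4.11 ± 0.311 to 68.3 ± 3.08 CPM in KO (3.79 and 4.05), and was higher in KO under LPS (0.89, edgeR adjusted p = 5.41e-08) and PBS (0.62). Near Clec12a, Cd69 rose by 9.38 in WT and 8.79 in KO, Clec2d rose by 1.80 and 2.53, and Clec2i fell (-3.08 and -2.96). Klrk1, which encodes NKG2D, was at or under the floor in every PBS library and at 32.4 ± 5.73 CPM in WT LPS libraries, at least 302-fold higher than the mean floor per library, and at least 264-fold higher in KO.

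Over all 54 other C-type lectin genes listed, 23 were tested. With LPS 11 were higher and 10 lower in WT, and 11 and 9 in KO, with medians of 0.10 and 0.0011, where 36.5% and 40.2% of all genes were higher and lower in WT and 38.8% and 41.1% in KO. Between genotypes 5 were higher and 4 lower under PBS (12.3% and 13.0% of all genes), and 7 higher and 4 lower under LPS (22.1% and 19.3%). Mrc1, the mannose receptor, stood at 273 ± 8.93 CPM with PBS in WT but at 119 ± 8.69 CPM in KO libraries (-1.20, edgeR adjusted p = 5.49e-08), and was lower in KO under LPS too (-1.10), as was Cd69 (-0.33, edgeR adjusted p = 0.0065, -0.74 to -0.22 over the alternatives). Thbd, which encodes thrombomodulin, was higher in KO under PBS (0.66, edgeR adjusted p = 9.80e-06), and so was Clec2i (0.34, edgeR adjusted p = 0.00515, a call lost under 1 of 21 alternatives, with values of 0.14 to 0.41 over all of them). Thbd had LPS changes of -2.93 in WT and -3.71 in KO. Clec2d was higher in KO under LPS (0.76, edgeR adjusted p = 0.0275), a call that 6 of 21 alternatives did not keep. The interaction was called for 4 of the 23 genes, near the share of all genes (9.78% higher and 8.26% lower), namely Clec4a1 and Cd302 (0.47, lost under 8 of 20 alternatives) higher, and Thbd (-0.77) and Cd93 (-0.60) lower.

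Since Clec10a, Mgl2 and Mrc1 are known to respond to interleukin-4, a list of 20 IL-4-responsive macrophage genes was read as well, of which 18 were tested. Under PBS 9 were lower and 3 higher in KO, with a median of -0.19, where 13.0% of all genes were lower and 12.3% higher and their median was 0.00036. Under LPS 6 were lower and 6 higher, with a median of -0.039, where 19.3% of all genes were lower and 22.1% higher and their median was 0.00059. Mrc1 and Itgax (-1.02 under PBS) were lower in KO, and Retnla, which encodes the secreted protein RELMα, stood with LPS at 5.45 ± 1.54 CPM in WT but at 1.76 ± 0.617 CPM in KO libraries (-1.62, edgeR adjusted p = 7.81e-05). Chil3, which encodes the chitinase-like protein Ym1, was instead higher in KO, by 0.81 under PBS and 0.93 under LPS, and Klf4 by 0.52 under PBS. With LPS, 10 were higher and 6 lower in WT, and 9 higher and 5 lower in KO, beside the shares of all genes given above. The chemokine Ccl22 rose by 6.43 in WT and 8.19 in KO and Socs1 by 6.67 and 6.53, whereas Pparg fell (-3.13 and -3.59). The interaction was called for 6 of these genes, 4 higher and 2 lower (9.78% and 8.26% of all genes), with Ccl22 at 1.76, Pparg at -0.47 and Klf4 at -0.38, the last 2 lost under 3 and 5 of 20 alternatives.

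The genes whose pattern was most like that of each receptor were found as those with the smallest root mean square difference in log2 CPM over the 12 libraries, each gene centred on its own mean. Among the receptors themselves, Clec4d and Clec5a were nearest, at 0.0725, and Clec4n and Clec7a followed at 0.213. Outside the 8 genes, Ifnar2 (0.0904) and Ints12 (0.0995) were nearest to Clec4d, Gbp7 (0.131) and Sdc4 (0.177) to Clec4e, and Tra2b (0.0809) and Tmed5 (0.0821) to Clec5a. Gbp7, an interferon-inducible GTPase, averaged 6.74 CPM in WT PBS, 372 CPM in WT LPS, 5.01 CPM in KO PBS and 587 CPM in KO LPS libraries, the same order of groups as Clec4e. Scfd1 (0.0417) and Dnttip1 (0.0471) were nearest to Clec12a, Atg5 (0.0559) and Ppp1ccb (0.0572) to Clec7a, Trub2 (0.0697) and C330007P06Rik (0.0773) to Clec4n, and Mthfd1 (0.139) and Gcsh (0.147) to Clec10a. Mgl2 had the most distant neighbours, Htra1 (0.184) and Dcn (0.242). Dcn, which encodes decorin, a matrix proteoglycan made chiefly by fibroblasts, averaged 8.07 CPM in WT PBS, 13 CPM in WT LPS, 3.65 CPM in KO PBS and 7.49 CPM in KO LPS libraries, and its part in the Mgl2 result was not tested.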

How the data were processed

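mRNA of 12 libraries was measured by single-end sequencing on a BGISEQ-500. The deposited values are expected counts per gene, which the authors had not scaled between libraries, and 24.6% to 26.9% of the values per library carried decimals. The submitters' processing notes name Bowtie2, RSEM 1.3.1 and build GRCm38.p6, whereas the study's methods name STAR and HTSeq, so which tools made these values is open. Reads carried no molecular identifiers, so floors cover counting error only.

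Expected counts were rounded, filtered with filterByExpr on the 4 groups and scaled with TMM. A single model over all 12 libraries, in which each group had its own mean, was fitted by quasi-likelihood (robust option) with edgeR 4.0.16 (limma 3.58.1, R 4.3.3). P-values are two-sided and adjusted with Benjamini-Hochberg over the 12064 genes tested, with a threshold of 0.05. The typical biological coefficient of variation was 6.99%. SE is the absolute log2 fold change divided by the square root of F. The pipeline was tested on simulated data. Transcript lengths and GC content (16408 genes, 97%) came from GENCODE M21, and positions and promoters from RefSeq of GRCm38.p6.

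The receptor genes and the lists were chosen with earlier results of these data known. All 8 receptors are named. Of each list, the genes named are, per contrast, the 2 with the largest change each way among those called whose higher group averaged 5 CPM or more, together with Fcer1g, Tyrobp, Syk, Card9 and Ptpn6. Lectin genes named within 500 kb of a receptor, cell type markers named singly, and the closer description of Gbp7 and Dcn among the nearest genes were chosen after their values were seen. P-values measure the spread between the libraries of a group. Alternatives were RLE, upper-quartile and total-count scaling, no filter, a stricter filter (10 counts or more in each library), DESeq2 1.42.0, a fit to just the groups compared, a block for replicate number, leaving out each library, and a GC correction (lowess trend with a span of 0.3 as an offset), which was chosen after seeing the data.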

Additional observations from a re-analysis of the deposited data

Results flagged for a closer look

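For 4 of the 8 receptor genes the effect of LPS differed between the genotypes, by the test of the interaction itself (edgeR, adjusted over all genes tested), which called 9.78% of all genes higher and 8.26% lower. The LPS change in KO minus that in WT was 1.10 for Clec4e, 0.54 for Clec5a, 0.45 for Clec4d and -0.83 for Clec10a. That of Clec4d lost its call with library totals alone (0.32, edgeR adjusted p = 0.0737). With the correction for transcript GC content the values were 0.99, 0.41, 0.34 and -0.82, and each was still called. For Clec4e the genotype difference changed sign with treatment, being -0.47 under PBS and 0.63 under LPS, and each was called.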

How the results depend on the processing

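Of 832 values of the 8 receptor genes under the alternatives, 799 kept their direction and their side of the threshold, 13 lost the call, 4 gained it and 16 changed direction. Among the 832 are fits that left out a library of neither group compared, which hardly moves a log2 fold change. Clec4e with LPS in WT, for instance, stayed at 5.54 without KO LPS replicate 1. The 799 therefore overstate how far the results were tried. With library totals alone, Mgl2 with LPS in WT turned to -0.024, Clec5a under PBS (KO against WT) to 0.045 and the interaction of Clec4n to -0.089. With the GC correction, KO against WT under PBS turned to -0.14 for Clec4d, -0.11 for Clec7a and -0.14 for Clec12a, Clec7a under LPS to -0.022 and the interaction of Clec4n to -0.015. Clec5a under PBS was 0.013 with RLE and with DESeq2. Leaving out each library in turn gave -0.051 to 0.081 for Clec5a and -0.041 to 0.11 for Clec12a under PBS, -0.055 to 0.012 for Ythdf1 (KO against WT under LPS), and -0.044 to 0.10 for the interaction of Clec4n. Of these only Mgl2 with LPS in WT and Clec7a under LPS were called with TMM, and the cause was not tested. All genes called in KO against WT under PBS numbered 3058, but 4627 with only the libraries compared, and between 1992 (without KO PBS replicate 1) and 3896 with a library left out. Receptor genes called numbered 6 to 8 (LPS in WT), 7 to 8 (LPS in KO), 2 to 4 (genotype under PBS), 5 to 7 (genotype under LPS) and 3 to 6 (interaction).

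With library totals alone the share of calls that were higher fell from 47.6% to 21.2% with LPS in WT, from 48.6% to 20.8% with LPS in KO, from 53.4% to 37.9% for genotype under LPS and from 54.2% to 24.4% for the interaction, and rose from 48.6% to 61.6% for genotype under PBS. With upper-quartile scaling they were 32.5%, 33.8%, 41.6%, 43.1% and 42.2%. The correlation of deviations was -0.0758 to 0.127 over 18 same-number pairs and -0.182 to 0.17 over 36 other-number pairs. Replicate numbers thus showed no pairing of the libraries by this measure, which cannot exclude a shared mouse. With the replicate number as a block, no receptor call changed, and 9267, 9631, 2969, 5030 and 2132 genes were called in the 5 contrasts, beside 9254, 9635, 3058, 4990 and 2176. Low counts limit Mgl2 most, whose counts fell to 15.77.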
